A study of Mus musculus with 46 samples.

Results

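The genes described here are 60 mouse fibroblast genes that stood lowest, relative to their starting level, on day 3 of reprogramming with a Nanog fusion and Oct4. In the study, mouse embryonic fibroblasts (MEF) carrying an Oct4-GFP reporter (OG2; embryonic day 13.5, offspring of OG2 males and 129 females) were infected with retroviruses that carry Oct4 (Pou5f1) and 1 of 2 forms of Nanog. In 1 combination Nanog was joined at its start to the BRG1-interacting piece of SS18 (NanogBiD, named NanogN70 in the sample labels), and in the other it was the native protein (NanogWT). RNA was sequenced from 2 libraries of each combination at 8 times from D0 to D12 (D0, when infection ended, then days 1, 3, 5 and 7 in the first medium and 8, 10 and 12 in the next; 1 library for NanogBiD D8), from 2 MEF libraries and from 1 library of OG2 mouse embryonic stem cells (mES). A second table holds 6 induced pluripotent stem cell (iPSC) samples of each combination. It lists the same 2 MEF and 1 mES samples again, with separately estimated values. All infected cultures therefore received exogenous Oct4 and a form of Nanog, but the share of cells that took up both is not given. MEF cultures are mixed mesenchymal cells of whole embryos. The cells were moved from iCD3 medium to N2B27 medium with 2 inhibitors and LIF at about D7, so that day and medium cannot be told apart after D7.

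Fibroblasts hold their shape and their tissue by secreting collagens, elastic fibre proteins and small proteoglycans, and by pulling on that matrix with actin bundles that contain smooth muscle proteins. Much of this programme answers to TGF-beta, which is stored in the matrix, and to the actin-regulated factor SRF. The shutdown of this programme is a known early step of reprogramming to pluripotency, before the network of pluripotency genes is switched on.

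The genes were chosen from the measured values, so what the choice used is given without a test. Candidates had at least 20 FPKM in both MEF libraries and less than 1 FPKM in mES, which left 134 of 37108 genes; on the scale x = log2(FPKM + 1), the members are the 60 candidates with the lowest ratio of the mean x of both NanogBiD D3 libraries to the mean x of both MEF libraries. The ratio ran from 0.00577 for Fmod up to the cutoff, where Col1a2 (0.566), Prrx1 (0.580) and P3h3 (0.584) were just inside and Actg2 (0.589), Col1a1 (0.590) and Col6a3 (0.595) just outside. The 74 candidates with a higher ratio are called the other candidates below. The 60 names stand for 55 separate loci: Ccn5 and Wisp2 are the same gene, as are Ccn4 and Wisp1, and the hairpin entries Mir199a-2 and Mir214 lie in the noncoding gene Dnm3os, Mir1903 in Nrp1 and Mir7040 in Loxl3, which is not a member. By role they hold 7 contractile and actin genes, 8 genes of collagens and their handling, 4 small leucine-rich proteoglycans, 5 genes of elastic fibres and calcification, 4 CCN entries, 3 genes of TGF-beta supply, 3 of prostaglandins and coagulation, 6 of secreted signals and their receptors, 4 transcription regulators, 5 noncoding entries and 11 others. A value on a hairpin entry comes from reads of the longer transcript and is no measure of the mature miRNA. RefSeq classes 55 members as protein coding, 4 as miRNA and 1 as lncRNA, and 23 overlap another annotated gene, where reads counted without strand could not be told apart.

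In short, the low level at D3 was not particular to NanogBiD: 45 of the 60 members also fell with NanogWT from D0 to D3, as did 5.11% of all genes tested. Many already stood below MEF at D0 in both combinations. After D7, many rose with NanogWT, and the change from D7 to D12 was more negative with NanogBiD for 36 members (18 without replicate 1), as for 7.33% of all genes tested.

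As a check of the labels, Nanog was at 0.235 and 0.229 FPKM in MEF and at 1479.8 and 1590.3 FPKM in NanogBiD D3 against 1568 and 1626 FPKM in NanogWT D3. Ss18, whose first part the fusion carries, was at 136 and 117 FPKM against 35.4 and 35.6 FPKM on the same day. The 31 time-course libraries summed to 370030 to 462190 FPKM, with 12442 to 14431 genes at 1 FPKM or more. The depth, judged from the steps between low values, was 0.872 to 1.10 times the median in the 20 libraries up to D7, 0.810 to 1.02 in the 5 later NanogBiD libraries and 1.85 to 3.18 in the 6 later NanogWT libraries; the part of this greater depth in the late differences was not tested, and FPKM divides by depth. All 14 markers of a fibroblast list, of which 4 are members, were above 1 FPKM in MEF. Their summed level was 9214 to 9252 FPKM in MEF, against 67.6 FPKM in mES. With NanogBiD it was 6229 to 6358 at D0, 8448 to 8548 at D1 and 4435 to 4787 at D3. With NanogWT it was 5802 to 6311, 9564 to 10629 and 5417 to 5822 on these days. Macrophage markers, 12 in all and none a member, summed to 6.37 to 15.8 FPKM in MEF. They summed to 60.6 to 112 at NanogBiD D0, 58.7 to 181 at NanogWT D0 and at most 58.6 on any later day. Lists of 9 chondrocyte and 12 skeletal muscle markers, none a member, were lower at D0 than in MEF. The chondrocyte sum was 49.5 to 112.7 FPKM in MEF, 12.3 to 15.7 at NanogBiD D0 and 13.1 to 21.3 at NanogWT D0. For skeletal muscle it was 41.6 to 115.4, 8.93 to 13.2 and 20.3 to 21.97. Endothelial, adipocyte and neuron sums were higher at D0 than in MEF. The part of these cell types in the D0 values was not tested. In bulk RNA a lower value can mean fewer cells of a type or less RNA per cell, which cannot be told apart here.

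The windows of 250 bases before a start site are shown for the 4 members that hold a CArG box there, the binding letters of SRF, since SRF drives many contractile genes. They come from RefSeq on GRCm38.p6 (mm10), the box is in capitals, and each is written 5′ to 3′ along the gene. Promoters were given for 39 of the members. Of the 7 contractile members 5 had one, and 2 of these 5, Myl9 and Fhl2, hold a box, while Acta2, Cnn1 and Mical2 have no match in this window; Filip1l and Dnm3os are not contractile genes.
Myl9, chr2:156775214-156775463, plus strand: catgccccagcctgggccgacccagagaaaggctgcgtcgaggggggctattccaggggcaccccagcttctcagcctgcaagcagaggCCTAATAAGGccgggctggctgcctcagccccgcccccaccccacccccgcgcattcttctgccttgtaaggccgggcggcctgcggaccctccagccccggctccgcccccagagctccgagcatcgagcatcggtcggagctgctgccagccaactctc
Fhl2, chr1:43163962-43164211, minus strand: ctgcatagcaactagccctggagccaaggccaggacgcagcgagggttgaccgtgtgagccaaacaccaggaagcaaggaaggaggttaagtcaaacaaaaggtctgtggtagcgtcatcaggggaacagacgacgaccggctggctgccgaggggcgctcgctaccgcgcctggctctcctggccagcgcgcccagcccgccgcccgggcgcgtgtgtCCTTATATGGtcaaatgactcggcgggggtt
Fhl2, chr1:43196762-43197011, minus strand: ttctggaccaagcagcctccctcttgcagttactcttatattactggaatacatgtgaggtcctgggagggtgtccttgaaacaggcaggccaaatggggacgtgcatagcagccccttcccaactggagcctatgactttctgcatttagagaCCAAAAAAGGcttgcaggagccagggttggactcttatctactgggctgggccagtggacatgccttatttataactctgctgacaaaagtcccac
Filip1l, chr16:57548992-57549241, plus strand: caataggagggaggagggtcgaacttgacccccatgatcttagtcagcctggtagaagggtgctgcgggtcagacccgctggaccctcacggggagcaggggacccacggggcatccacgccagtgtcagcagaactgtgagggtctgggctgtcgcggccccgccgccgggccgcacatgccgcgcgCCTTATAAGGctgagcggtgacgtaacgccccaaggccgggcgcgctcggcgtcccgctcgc
Dnm3os, chr1:162217373-162217622, plus strand: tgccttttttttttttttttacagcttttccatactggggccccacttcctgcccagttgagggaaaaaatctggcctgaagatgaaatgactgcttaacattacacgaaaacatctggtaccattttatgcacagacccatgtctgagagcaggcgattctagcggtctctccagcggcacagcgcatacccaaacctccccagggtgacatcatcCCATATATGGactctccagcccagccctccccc
Myl9 encodes a regulatory light chain of smooth muscle myosin, Fhl2 a LIM-domain cofactor of SRF, and Dnm3os is the noncoding host of miR-199a and miR-214. The box ended 151 bases before the start site in Myl9, 21 and 86 bases before the 2 start sites of Fhl2, 52 in Filip1l and 23 in Dnm3os. None of the 5 boxes overlapped a match of the other motifs searched.

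A CArG box stood in 10.3% of the members with a promoter (4 of 39), in 2.33% of the other candidates with one (1 of 43) and in 1.62% of all 27025 genes with one. The box is a CC and a GG with only A or T in between, as in the capitals above, and all motifs were read on both strands. The TEAD letters GGAATG stood in 25.6%, 16.3% and 14.4%. The AP-1 letters TGANTCA stood in 2.56% (1 of 39), 9.30% (4 of 43) and 7.82%, the TATA letters TATAAA in 17.9%, 32.6% and 14.3%, and the CEBP letters TTGCNNAA in 12.8%, 14.0% and 10.8%. The E-box CANNTG stood in 66.7%, 53.5% and 69.3%. These are matches of letters in a short window and not bound sites, and no match says nothing about a factor.

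The members summed to 8751 FPKM on average in MEF and to 12.2 FPKM in mES. Their median level, on the log2(FPKM + 1) scale, went from 5.74 in MEF to 4.24 at NanogBiD D0, 3.09 at D1 and 2.36 at D3, the day that chose them, and then to 2.34 at D5, 2.14 at D7, 2.67 at D8, 1.84 at D10 and 1.70 at D12. The D5 and D7 libraries took no part in the choice and stayed as low as those of D3. With NanogWT the median was 4.62 at D0, 3.39 at D1, 2.76 at D3, 2.67 at D5, 2.67 at D7, 3.68 at D8, 4.01 at D10 and 3.85 at D12.

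**Figure D1:**
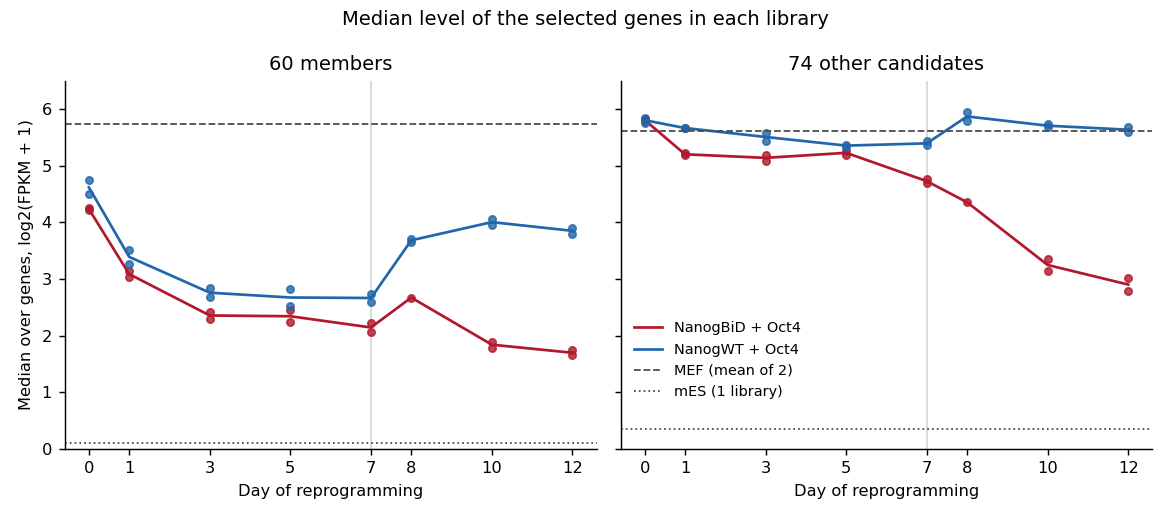
Median log2(FPKM + 1) over the 60 members (left) and the 74 other candidates (right) in every library against the day of reprogramming, with points for libraries, lines through group means, dashed and dotted lines for MEF and mES, and a grey line at D7. The members' median is lower at D3 than at D0 in both combinations and parts after D7, to 3.85 with NanogWT and 1.70 with NanogBiD at D12, while the other candidates stay near their MEF level with NanogWT.

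How much of the loss had taken place by a given day was expressed as a percentage of the distance in x from MEF to NanogBiD D3. At D0 the median member had covered 40.2% of that distance with NanogBiD and 29.1% with NanogWT, and 11 and 4 of the 60 members were past 75%. At D1 the medians were 75.6% and 60.7%, and 31 and 23 members were past 75%. At D3 NanogWT stood at a median of 84.6%, with 37 members past 75% and 55 past 50%, and at D7 at 93.8%. MEF and D0 cells also differ in infection and culture, and these cannot be told apart in the first step.

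**Figure D2:**
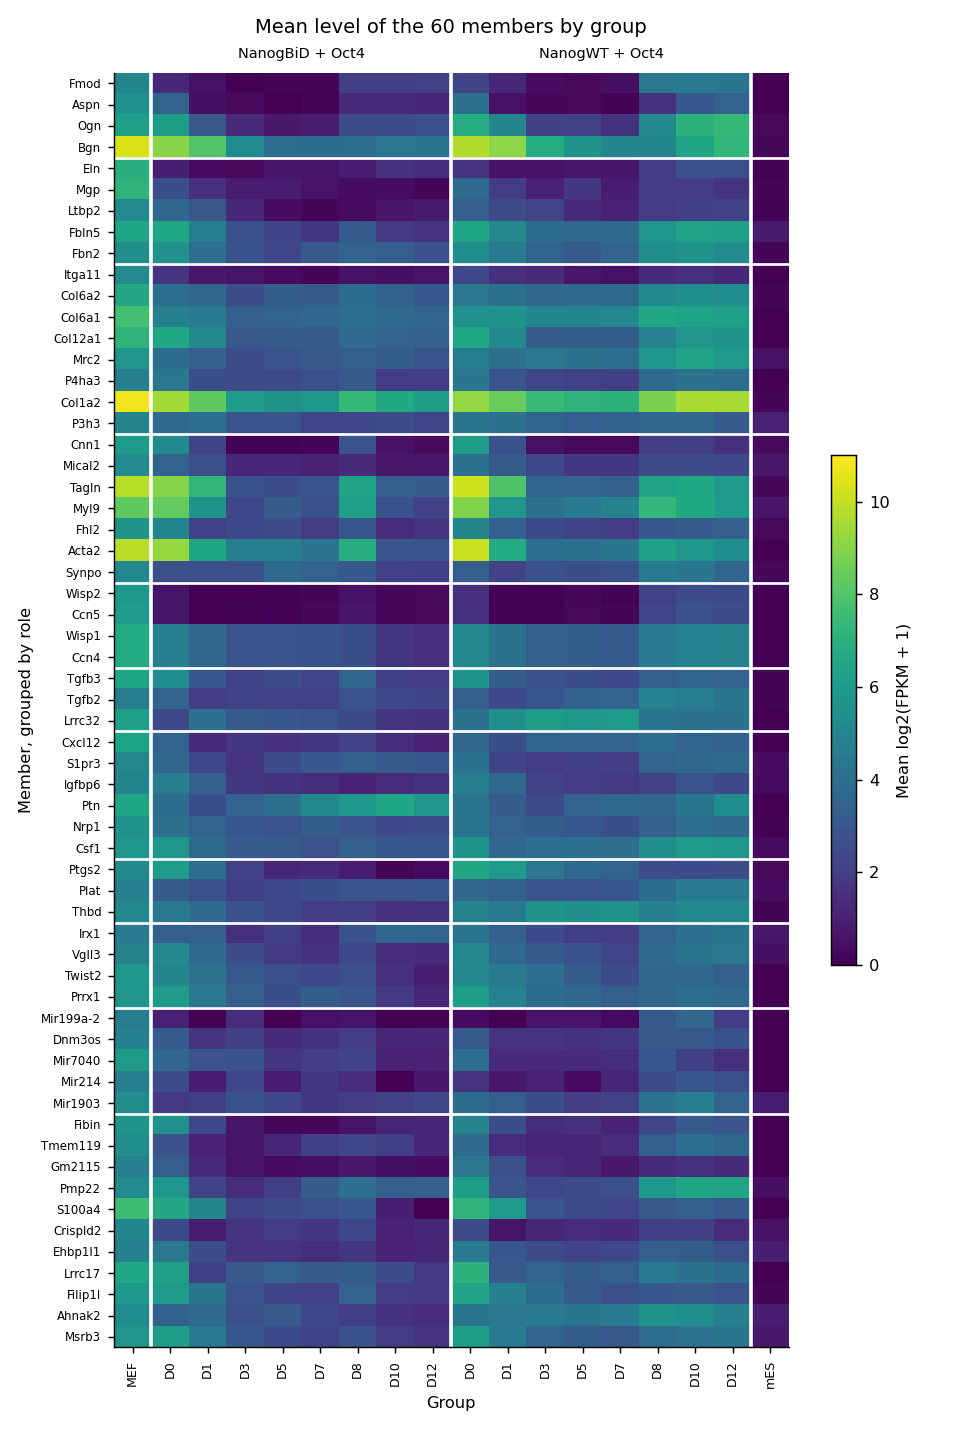
Mean log2(FPKM + 1) of each member (rows, in blocks by role) in MEF, in the 8 days of each combination and in mES (columns), from dark (0) to bright (11). In the columns for NanogWT many rows brighten from D8 on, among them Ogn, Pmp22 and Col1a2, and are dimmer on the same days for NanogBiD.

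Several matrix genes were already low at D0. Eln (chromosome 5, 134702595 to 134747368), the core protein of elastic fibres, was at 261 and 54.1 FPKM in MEF, 1.03 and 0.893 FPKM at NanogBiD D0 and 1.86 and 2.51 FPKM at NanogWT D0. Mgp (chromosome 6, 136872435 to 136875823), an inhibitor of matrix calcification, was at 262 and 74.99 FPKM in MEF, 5.14 and 5.22 FPKM at NanogBiD D0 and 16.9 and 10.4 FPKM at NanogWT D0. The MEF libraries differ several-fold for both genes, but every D0 value is far below the lower of them. Ccn5 (chromosome 2, 163820752 to 163833146; also listed as Wisp2), a secreted CCN-family protein, went from 69.7 and 63.8 FPKM in MEF to 0.173 and 1.14 FPKM at NanogBiD D0 and 2.59 and 1.57 FPKM at NanogWT D0. It was listed at 0 in both NanogBiD D1 libraries. Itga11 (chromosome 9, 62677855 to 62783979), the collagen-binding integrin chain of fibroblasts, was at 48.3 and 31.7 FPKM in MEF, 2.16 and 2.38 FPKM at NanogBiD D0 and 3.42 and 4.87 FPKM at NanogWT D0. Fmod (chromosome 1, 134037254 to 134048280), the small leucine-rich proteoglycan fibromodulin, was at 38.2 and 25.02 FPKM in MEF, 2.11 and 0.901 FPKM at NanogBiD D0 and 3.45 and 4.07 FPKM at NanogWT D0. All 5 genes were lower in every D0 library than in either MEF library. Of the distance in x from MEF to NanogBiD D3, 89.4% (Eln), 72.2% (Mgp), 89.8% (Ccn5), 77.3% (Itga11) and 74.8% (Fmod) had been covered at D0 with NanogBiD. In NanogWT D0 the shares were 78.9%, 52.9%, 74.2%, 63.6% and 55.3%.

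The other proteoglycans and the secreted protein Fibin reached their low level later than D0. Aspn (chromosome 13, 49544443 to 49567565), asporin, was at 66.2 and 32.5 FPKM in MEF, 11.3 and 9.74 FPKM at NanogBiD D0, 0.0756 and 0.707 FPKM at D1 and 0.0789 and 0.371 FPKM at D3. Ogn (chromosome 13, 49608015 to 49624501), osteoglycin, was at 135 and 40.2 FPKM in MEF, 60.3 and 85.7 FPKM at NanogBiD D0, 4.93 and 11.1 FPKM at D1 and 0.951 and 2.13 FPKM at D3. Bgn (chromosome X, 73483601 to 73495936), biglycan and one of the most abundant members in MEF, went from 1359 and 1345 FPKM to 493.2 and 558 FPKM at NanogBiD D0, 25.3 and 60.6 FPKM at D3 and 11.6 and 16.4 FPKM at D7. Fibin was near its MEF level at NanogBiD D0 (43.4 and 48.1 FPKM, against 54.7 and 46.5 FPKM in MEF) and at 4.56 and 3.99 FPKM at D1. At NanogBiD D1 all 4 were below both MEF libraries, with Bgn at 216 and 299.9 FPKM.

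Of the contractile members, Acta2, Tagln and Myl9 were among the 5 highest members in MEF, and with Cnn1 they reached their low level between D0 and D3. Synpo, in contrast, was already at 4.85 and 5.99 FPKM at NanogBiD D0, as low as at D3 (6.02 and 4.89 FPKM), from 39.2 and 29.4 FPKM in MEF. Acta2 (chromosome 19, 34240336 to 34255585), smooth muscle actin, was at 770.1 and 1153 FPKM in MEF, and with NanogBiD at 624 and 587 FPKM at D0, 56.9 and 136 FPKM at D1 and 34.1 and 19.8 FPKM at D3. With NanogWT it was at 1224 and 951 FPKM at D0, 86.4 and 138 FPKM at D1 and 15.2 and 15.2 FPKM at D3, so both D3 libraries of NanogWT were below those of NanogBiD. Tagln (chromosome 9, 45929628 to 45936058), transgelin or SM22, was at 707 and 1118 FPKM in MEF, and with NanogBiD at 567 and 449 FPKM at D0, 96.7 and 217 FPKM at D1 and 5.82 and 5.66 FPKM at D3. With NanogWT Tagln was at 1685 and 757 FPKM at D0, 203 and 293 FPKM at D1 and 8.08 and 14.4 FPKM at D3. Both genes kept their MEF order of magnitude at D0 and were far lower at D1 in either combination. A list of 9 smooth muscle and pericyte markers, of which 1 (Acta2) is a member, had a summed level of 919.5 to 1456 FPKM in MEF. With NanogBiD the sum was 928 to 1077 at D0, 123 to 233 at D1 and 41.8 to 73.1 at D3. With NanogWT it was 1252 to 1744, 163 to 217 and 76.3 to 94.6 on these days. Acta2 made up most of the sum in MEF and at D0, so the list is no separate measure. The sum without Acta2 was not taken. No marker of the list was at 0 in both MEF libraries, and its part in the contractile values was not tested. Cnn1 (chromosome 9, 22099221 to 22109221), calponin, went with NanogBiD from 42.2 and 31.2 FPKM at D0 to 1.78 and 7.23 FPKM at D1 and 0.0590 and 0.0832 FPKM at D3, and with NanogWT from 97.4 and 49.97 FPKM to 5.22 and 6.42 FPKM and 0.569 and 0.248 FPKM. Myl9 (chromosome 2, 156775408 to 156781657), which holds the first of the boxes shown above, went with NanogBiD from 377 and 281 FPKM at D0 to 33.6 and 72.1 FPKM at D1 and 6.00 and 2.60 FPKM at D3. With NanogWT Myl9 was at 780.0 and 293 FPKM at D0, 40.4 and 68.0 FPKM at D1 and 13.1 and 18.5 FPKM at D3.

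**Figure D3:**
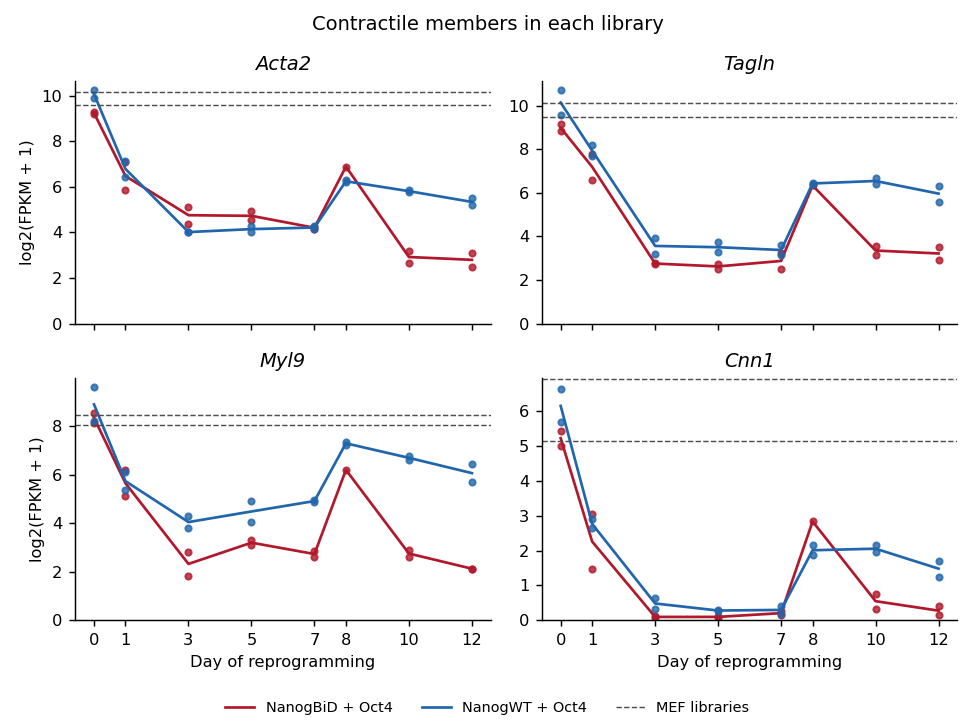
log2(FPKM + 1) of Acta2, Tagln, Myl9 and Cnn1 in every library against the day of reprogramming, for NanogBiD (red) and NanogWT (blue), with dashed lines for the 2 MEF libraries and solid lines through group means. All 4 are low in both combinations at D3, stand higher at D8 than at D7, and at D12 are lower with NanogBiD than with NanogWT.

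The loss with NanogWT was tested on libraries that took no part in the choice of members. Genes are called changed here at an adjusted p under 0.05 and a difference of at least 2-fold (log2 difference of 1 or more) in a limma fit over the 31 time-course libraries, on the log2(FPKM + 1) scale, where the added 1 makes the changes of low genes look smaller. Nothing says that the 2 libraries of a group came from separate cultures, so the p-values measure the spread between libraries, which may be technical. From NanogWT D0 to D3, 45 of the 60 members fell (5.11% of all 16842 genes tested fell) and 1 rose (9.55% of all genes rose), and the members' median log2 difference was -1.82, against 0.092 over all genes and -0.50 over the other candidates, of which 21 of 74 fell and 9 rose. From NanogWT D0 to D7, 45 members fell and 1 rose as well (5.69% and 12% of all genes), with a median of -2.19. By role, 6 of 7 contractile genes, 4 of 4 proteoglycans, 5 of 5 elastic fibre genes, 4 of 4 transcription regulators and 4 of 4 CCN entries fell from D0 to D3. Acta2 (log2 difference -6.06, SE 0.32, adjusted p = 4.12e-11), Tagln (-6.58), Cnn1 (-5.66) and Ogn (-4.74) were among the 5 largest falls, together with Myl9 (-4.85). Of the collagens and their handling genes 3 of 8 fell, of the TGF-beta genes 1 of 3 and of the prostaglandin and coagulation genes 1 of 3.

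The member that rose with NanogWT was Lrrc32 (chromosome 7, 98489305 to 98501831), which encodes GARP, the surface protein that holds latent TGF-beta. It was at 57.5 and 91.6 FPKM in MEF, and with NanogWT at 15.9 and 17.3 FPKM at D0, 38.3 and 45.5 FPKM at D1, 67.2 and 68.6 FPKM at D3 and 68.6 and 52.0 FPKM at D7 (D7 against D0, log2 difference 1.79, SE 0.20, adjusted p = 6.94e-07). With NanogBiD it was at 3.94 and 4.79 FPKM at D0, 16.6 and 13.9 FPKM at D1, 7.01 and 9.32 FPKM at D3 and 6.36 and 6.06 FPKM at D7. It was low at D0 in both combinations, then returned to or near the MEF range with NanogWT alone. Thbd (chromosome 2, 148404471 to 148408188), thrombomodulin, an anticoagulant surface protein, was with NanogWT at 25.7 and 33.7 FPKM at D0, 48.1 and 53.3 FPKM at D3 and 42.8 and 53.5 FPKM at D7, with MEF at 54.1 and 23.5 FPKM. With NanogBiD Thbd went from 17.7 and 24.4 FPKM at D0 to 5.21 and 6.66 FPKM at D3 and 3.11 and 2.83 FPKM at D7. Ahnak2, a large scaffold protein, was at 16.2 and 32.8 FPKM at NanogWT D3 and 3.82 and 8.10 FPKM at NanogBiD D3, and at 26.5 and 17.5 FPKM and 5.31 and 2.96 FPKM at D7. Tgfb2, the TGF-beta2 ligand, was at 8.40 and 11.7 FPKM at NanogWT D7 and 3.75 and 3.30 FPKM at NanogBiD D7, with MEF at 24.3 and 23.0 FPKM.

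Up to D7, most members did not pass the test between the combinations. At D0, 2 members were lower with NanogBiD (0.338% of all genes were lower) and none higher (0.422% of all); these were Lrrc32 (log2 difference -1.72, SE 0.20, adjusted p = 0.000153) and Tmem119 (log2 difference -1.09, SE 0.23, adjusted p = 0.0159), a membrane protein of bone-forming cells, at 6.73 and 4.81 FPKM against 16.3 and 10.8 FPKM. Lrrc32 did not pass in a fit of the D0 groups alone (adjusted p = 0.590), and Tmem119 passed neither there (0.624) nor in limma without replicate 1 (0.181) or 2 (0.0716); the count is 1 without replicate 1 and 3 without replicate 2. At D1, 7 were lower (0.962% of all) and none higher (0.368% of all), or 3 without replicate 1, 1 without replicate 2 and 0 in a fit of the D1 groups alone. At D5, 15 were lower (3.28% of all) and 1 higher (3.2% of all), or 10 in either direction without replicate 1. At D7, 13 were lower (4.65% of all) and 1 higher (5.79% of all). The members' median log2 difference lay between -0.48 (D5) and -0.37 (D7) on these 4 days, against 0.011 to 0.079 over all genes, and the other candidates had a median of -0.68 at D7, with 22 of 74 lower and 2 higher.

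The members that differed most at D7 were Thbd and Lrrc32, followed by Myl9, Ahnak2 and Ptgs2. Thbd was lower with NanogBiD (log2 difference -3.62, SE 0.21, adjusted p = 5.35e-10), as was Lrrc32 (log2 difference -3.07, SE 0.20, adjusted p = 1.67e-09). Ptgs2 (chromosome 1, 150100031 to 150108234), cyclooxygenase-2 of prostaglandin synthesis, was at 21.4 and 63.4 FPKM in MEF, and went with NanogBiD from 69.7 and 63.0 FPKM at D0 to 2.62 and 4.18 FPKM at D3 and 1.31 and 1.83 FPKM at D7. With NanogWT Ptgs2 was at 87.3 and 92.1 FPKM at D0, 16.46 and 23.3 FPKM at D3 and 10.1 and 10.4 FPKM at D7 (log2 difference -2.14, SE 0.20, adjusted p = 1.81e-07). Myl9 was at 5.05 and 6.33 FPKM against 29.9 and 28.7 FPKM at D7 (log2 difference -2.18, SE 0.42, adjusted p = 0.000581). Ahnak2 was lower too (log2 difference -2.17, SE 0.38, adjusted p = 0.000233). Fbln5, fibulin-5 of elastic fibres, was at 2.41 and 2.19 FPKM with NanogBiD and 11.3 and 14.2 FPKM with NanogWT at D7 (log2 difference -2.05, SE 0.18, adjusted p = 6.60e-08). Cxcl12, the chemokine that keeps stem cells in the marrow, was at 2.50 and 2.47 FPKM with NanogBiD and 11.02 and 9.96 FPKM with NanogWT at D7 (log2 difference -1.72, SE 0.28, adjusted p = 0.000118), from 128 and 53.4 FPKM in MEF. The others lower at D7 were Col6a1, Col1a2, Tgfb2, Csf1, P3h3 and Bgn, with log2 differences from -1.45 (Col6a1) to -1.12 (Bgn). The call of Bgn was lost without either replicate (adjusted p = 0.147 and 0.154 in limma).

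The member higher with NanogBiD at D7 was Ptn (chromosome 6, 36714924 to 36810179), pleiotrophin, a heparin-binding growth factor also made by neural progenitors. It was at 153 and 49.9 FPKM in MEF, and with NanogBiD at 5.96 and 4.59 FPKM at D1, 13.7 and 7.45 FPKM at D3, 36.7 and 36.2 FPKM at D7, 74.4 and 101 FPKM at D10 and 44.2 and 63.1 FPKM at D12. With NanogWT it was at 8.09 and 8.10 FPKM at D1, 5.57 and 4.38 FPKM at D3, 12.1 and 13.8 FPKM at D7, 14.0 and 23.3 FPKM at D10 and 44.9 and 35.8 FPKM at D12. Ptn stood in the MEF range again at D10 with NanogBiD and not with NanogWT (D7, log2 difference 1.43, SE 0.30, adjusted p = 0.00130, and adjusted p = 0.0549 in limma without replicate 1; D10, log2 difference 2.199, SE 0.30, adjusted p = 4.50e-06), and the difference did not pass the threshold at D12 (log2 difference 0.39, SE 0.30, adjusted p = 0.301). S1pr3, a receptor for sphingosine 1-phosphate, was at 7.75 and 6.41 FPKM with NanogBiD and 3.18 and 2.89 FPKM with NanogWT at D7 (log2 difference 1.00, SE 0.22, adjusted p = 0.00199, just under 2-fold). Synpo, the actin-bundling protein synaptopodin, was at 10.6 and 14.4 FPKM against 4.46 and 6.28 FPKM at D5 (log2 difference 1.08, SE 0.24, adjusted p = 0.00369, lost without replicate 1 or 2 at adjusted p = 0.0736 and 0.0597) and at 13.3 and 8.03 FPKM against 5.71 and 5.66 FPKM at D7. Tmem119 was at 3.69 and 2.76 FPKM against 1.80 and 1.43 FPKM at D7, the opposite order to D0.

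**Figure D4:**
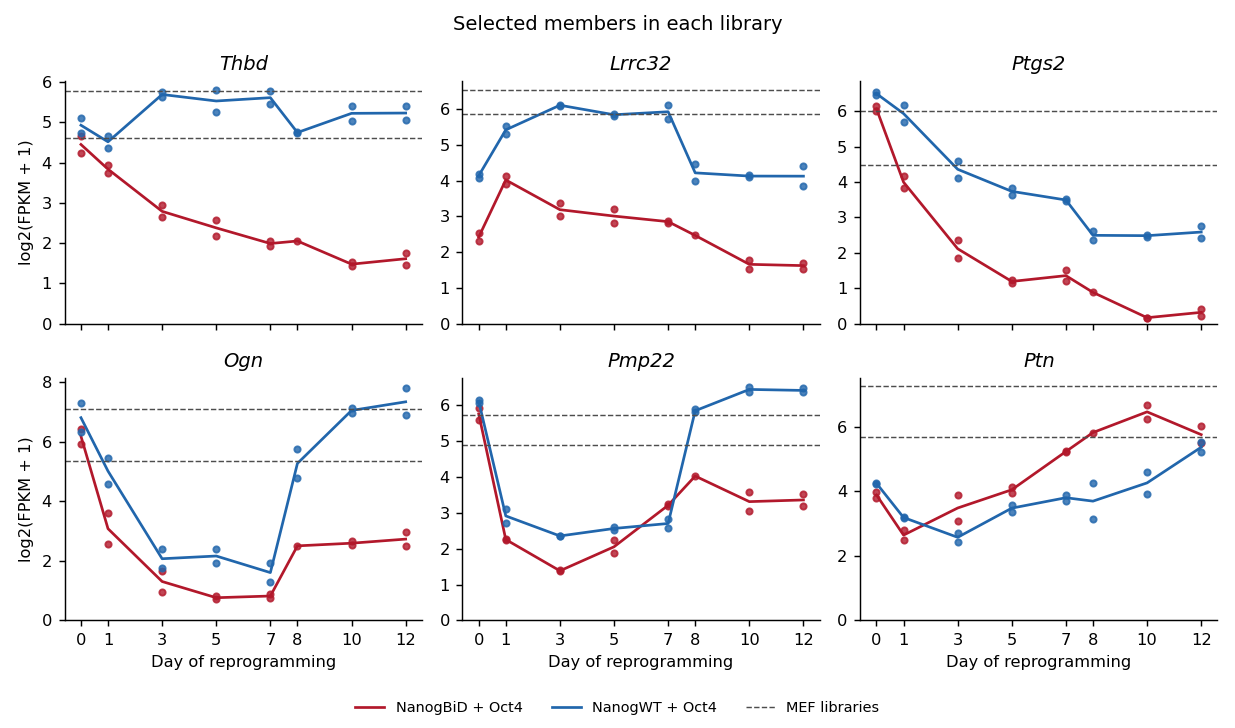
log2(FPKM + 1) of Thbd, Lrrc32, Ptgs2, Ogn, Pmp22 and Ptn in every library against the day of reprogramming, for NanogBiD (red) and NanogWT (blue), with dashed lines for the 2 MEF libraries and solid lines through group means. Thbd stays in or near the MEF range with NanogWT, Ogn and Pmp22 are back at MEF levels by D12 with NanogWT alone, and Ptn reaches a mean of 87.8 FPKM at NanogBiD D10.

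Whether the change from D0 to D7 itself differed between the combinations was tested as an interaction. It was more negative with NanogBiD for 10 members (4.88% of all genes) and more positive for 4 (5.2% of all), or 5 in either direction without replicate 1, and the members' median was -0.015. The 10 were Thbd (log2 difference -3.14, SE 0.30, adjusted p = 1.01e-06), Fbln5, Ptgs2, Col1a2, Fibin, Cxcl12, Tgfb2, Lrrc32, Csf1 and Ltbp2, with the last at -1.30. The 4 were Ptn (1.79), Tmem119 (1.78), S1pr3 (1.46) and Synpo (1.39). Without replicate 1, Ltbp2, Ptn, S1pr3 and Synpo were among the calls lost, with adjusted p between 0.0768 (S1pr3) and 0.191 (Synpo) in limma.

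After D7 the members parted. From D7 to D8 with NanogWT, 36 rose (4% of all genes rose) and 1 fell (3.06% of all fell), with a median log2 difference of 1.33 against 0.041 over all genes, and 18 of 74 other candidates rose. From D7 to D12, 35 rose (6.66% of all) and 1 fell (4.62% of all). The NanogWT libraries from D8 on are the deeper ones named above. With NanogBiD, 10 fell from D7 to D12 (8.37% of all) and 5 rose (11.6% of all), with a median of -0.23, and 55 of the 74 other candidates fell. After quantile normalization the NanogBiD counts were 12 and 3, and after rescaling each library to TPM 12 and 7. The NanogWT member that fell in both steps was Lrrc32, back to 20.9 and 14.7 FPKM at D8.

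Ogn and Pmp22 had the highest NanogWT D12 level relative to MEF. Ogn went with NanogWT from 1.42 and 2.83 FPKM at D7 to 26.4 and 53.5 FPKM at D8, 123 and 141 FPKM at D10 and 118 and 221 FPKM at D12, and with NanogBiD from 0.684 and 0.848 FPKM at D7 to 4.65 and 6.80 FPKM at D12. Pmp22 (chromosome 11, 63128982 to 63159547), a membrane protein of myelin that fibroblasts also make, went with NanogWT from 4.99 and 6.09 FPKM at D7 to 58.5 and 54.9 FPKM at D8 and 81.2 and 87.9 FPKM at D12, and with NanogBiD from 8.49 and 8.05 FPKM at D7 to 8.22 and 10.4 FPKM at D12. In MEF, Ogn was at 135 and 40.2 FPKM and Pmp22 at 52.5 and 28.6 FPKM, so at D12 NanogWT was in or above the MEF range for both and NanogBiD below it. The change from D7 to D12 was more negative with NanogBiD for Ogn (log2 difference -3.83, SE 0.60, adjusted p = 0.000114) and for Pmp22 (log2 difference -3.56, SE 0.25, adjusted p = 1.24e-08). Mrc2, an endocytic receptor for collagen, went with NanogWT from 16.7 and 13.2 FPKM at D7 to 73.0 and 52.1 FPKM at D12 and with NanogBiD from 8.68 and 6.28 FPKM to 5.36 and 7.08 FPKM. Csf1, the macrophage growth factor, went from 15.1 and 16.2 FPKM to 61.5 and 48.2 FPKM with NanogWT and from 6.95 and 5.34 FPKM to 5.92 and 7.38 FPKM with NanogBiD. Fmod, the member lowest at NanogBiD D3, went from 0.155 and 0.613 FPKM to 21.1 and 17.5 FPKM with NanogWT and from 0.118 and 0.129 FPKM to 3.78 and 3.32 FPKM with NanogBiD. Both Fmod changes were called (log2 differences 3.89 and 2.02), and they differed (log2 difference -1.87, SE 0.39, adjusted p = 0.00160), but not in limma without replicate 1 (adjusted p = 0.117) or with a pseudocount of 0.1 (adjusted p = 0.154).

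The change from D7 to D12 was more negative with NanogBiD for 36 of the 60 members (7.33% of all genes) and more positive for none (6.78% of all); without replicate 1 the count was 18. The median over the members was -1.72, over the other candidates -2.10 and over all genes 0.069, and 59 of the 74 other candidates were more negative as well. At D10, 55 members were lower with NanogBiD (12.3% of all) and 1, Ptn, was higher (15.4% of all). At D12, 49 were lower (9.97% of all) and none higher (13.5% of all). The medians were -2.17 and -2.16, against -2.56 and -2.72 for the other candidates. At D12, 3 members were at or above their mean MEF level with NanogWT and none with NanogBiD, and 14 and 1 were at 50% of it or more. Those at or above were Ogn, Pmp22 and Mrc2, and the 1 with NanogBiD was Ptn.

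Of the collagen genes, Col1a2 (chromosome 6, 4505618 to 4541543), a chain of type I collagen and the highest member in MEF, went with NanogBiD from 717 and 699 FPKM at D0 to 65.6 and 44.0 FPKM at D7, was at 163 FPKM in the single D8 library and was at 57.5 and 88.8 FPKM at D12. With NanogWT it went from 624 and 574 FPKM at D0 to 136 and 134 FPKM at D7, 434 and 482 FPKM at D8 and 801 and 699 FPKM at D12, against 1876 and 1576 FPKM in MEF. Col1a1, its partner chain, just missed the cutoff and was at 3699.9 and 3344 FPKM in MEF and 113 and 133 FPKM at NanogBiD D3. Col12a1, a collagen that sits on the surface of fibrils, went with NanogWT from 9.40 and 7.65 FPKM at D7 to 54.4 and 46.1 FPKM at D12 and with NanogBiD from 9.98 and 6.87 FPKM to 7.57 and 11.9 FPKM. From D7 to D8 with NanogWT, 6 of the 8 genes of this group rose (4% of all genes rose). At D12 6 of 8 were lower with NanogBiD (9.97% of all genes were lower), as were 64 of the 74 other candidates. P3h3, a prolyl hydroxylase that modifies collagen, was lower at NanogBiD D7 and was at 4.05 and 3.81 FPKM against 9.18 and 7.25 FPKM at D12.

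Contractile members rose at D8, a step in which 4% of all genes tested rose with NanogWT. With NanogWT, 6 of 7 rose from D7 to D8, among them Acta2 from 16.8 and 18.4 FPKM to 77.5 and 72.4 FPKM (log2 difference 2.03, SE 0.32, adjusted p = 0.000145), Tagln from 11.1 and 7.85 FPKM to 84.2 and 86.1 FPKM (log2 difference 3.05, SE 0.40, adjusted p = 1.73e-05) and Myl9 from 29.9 and 28.7 FPKM to 151 and 163 FPKM. In the single NanogBiD D8 library Acta2 was at 118, Tagln at 79.8, Myl9 at 72.8 and Cnn1 at 6.14 FPKM, above both D7 and both D10 libraries for all 4 genes; with 1 library this has no replicate check. At D12 all 7 were lower with NanogBiD, with Acta2 at 7.63 and 4.59 FPKM against 44.0 and 35.4 FPKM (log2 difference -2.54, SE 0.32, adjusted p = 2.22e-06) and Tagln at 10.4 and 6.55 FPKM against 79.4 and 47.4 FPKM. Both were far below the MEF level of these genes. Of all genes tested 9.97% were lower with NanogBiD at D12, and of the other candidates 64 of 74.

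The 4 transcription regulators fell with NanogWT from D0 to D3 (5.11% of all genes fell), and 3 of them were lower with NanogBiD at D12 (9.97% of all). Prrx1, a homeobox factor of limb and skin mesenchyme, was at 51.5 and 52.2 FPKM in MEF, 66.6 and 66.7 FPKM at NanogBiD D0, 6.90 and 11.7 FPKM at D3, 7.91 and 9.03 FPKM at D7 and 1.24 and 1.62 FPKM at D12 (D12 against D7, log2 difference -1.96, SE 0.20, adjusted p = 1.07e-07), and at 12.1 and 12.9 FPKM at NanogWT D12. Twist2, a basic helix-loop-helix factor of dermal fibroblasts, was at 0.913 and 1.03 FPKM at NanogBiD D12 and 9.62 and 9.13 FPKM at NanogWT D12, from 55.3 and 59.9 FPKM in MEF. Irx1, an Iroquois homeobox factor with roles in patterning, took another course: it was at 23.4 and 22.9 FPKM in MEF, 2.39 and 1.22 FPKM at NanogBiD D7, 10.8 and 13.2 FPKM at D10 and 9.90 and 11.9 FPKM at D12 (log2 difference 2.11, SE 0.37, adjusted p = 9.68e-05), beside 22.7 and 14.9 FPKM at NanogWT D12. Besides Irx1, the NanogBiD cells raised Fmod, Ogn, Aspn and Fibin from D7 to D12, to group means between 1.40 (Fibin) and 5.72 FPKM (Ogn). The 10 that fell further were Acta2, Synpo, S100a4, Prrx1, Twist2, Ptgs2, Lrrc17, Lrrc32 and Ccn4, which is counted under both of its names. S100a4, a calcium-binding protein used as a fibroblast marker, was at 6.98 and 4.22 FPKM at NanogBiD D7 and at 0 in both D12 libraries. Plat, the tissue plasminogen activator, was with NanogBiD at 3.01 and 3.47 FPKM at D3 and 5.25 and 8.86 FPKM at D12, and at 25.7 and 19.9 FPKM at NanogWT D12.

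Of the CCN proteins, Ccn4 (listed also as Wisp1) was at 94.0 and 119.6 FPKM in MEF, and went with NanogWT from 8.42 and 7.57 FPKM at D7 to 28.04 and 30.2 FPKM at D12 and with NanogBiD from 6.11 and 5.68 FPKM to 1.48 and 2.18 FPKM. Ccn5 went with NanogWT from 0 and 0.198 FPKM to 6.32 and 3.96 FPKM and with NanogBiD from 0.190 and 0.139 FPKM to 0.0858 and 0.388 FPKM. All 4 CCN entries rose with NanogWT from D7 to D8 (4% of all genes) and were lower with NanogBiD at D12 (9.97% of all). Dnm3os, the noncoding gene whose window is shown above, was at 35.6 and 20.7 FPKM in MEF, 2.59 and 4.14 FPKM at NanogBiD D3, 1.12 and 1.71 FPKM at NanogBiD D12 and 5.18 and 6.44 FPKM at NanogWT D12. Of the 5 noncoding entries 2 fell with NanogWT from D0 to D3, 3 rose from D7 to D8 and 2 were lower with NanogBiD at D12, against 5.11%, 4% and 9.97% of all genes; Dnm3os, Mir199a-2 and Mir214 are overlapping entries of 1 locus. The 11 genes without one of these roles had 10 falls with NanogWT from D0 to D3 (5.11% of all genes) and 9 lower values with NanogBiD at D12 (9.97% of all).

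Related genes that are not members were counted in lists of textbook genes, with the members left out. From NanogWT D0 to D3, 17 of 24 contractile and SRF target genes fell and 1 rose, beside 19 of 57 matrix genes that fell and 10 that rose, 12 of 27 YAP and TEAD targets that fell and 4 that rose, and 13 of 25 TGF-beta genes that fell and 4 that rose. From NanogWT D7 to D8, 6 of the contractile genes, 22 of the matrix genes, 11 of the YAP and TEAD targets and 3 of the TGF-beta genes rose. At D12, 7, 44, 20 and 17 of them were lower with NanogBiD. Of all genes tested, 5.11% fell and 9.55% rose in the first of these comparisons, 4% rose in the second and 9.97% were lower in the third. The medians at D12 were -0.66, -2.18, -1.82 and -1.35, against 0.17 over all genes.

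In the iPSC table, 58 of the members are listed. Only 54 of them reached 1 FPKM in each MEF sample there. The 4 hairpin entries stayed below it, although the rule had required at least 20 FPKM for these same MEF samples in the time-course values. The 2 sets of values of these samples therefore differ. Ahnak2, for example, was at 8.49 and 9.94 FPKM in MEF here. The mean log2(FPKM + 1) over all 58 was 5.67 to 5.76 in MEF, 0.210 in mES and 0.135 to 3.22 in the 12 iPSC samples. The NanogBiD sample iPSC1 9# was the highest at 3.22, with the highest value of all iPSC samples for 53 of the 58 members, followed by NanogWT iPSC1 3# at 2.09 and iPSC1 1# at 1.29. The other 5 NanogBiD samples lay between 0.135 and 1.14, and 49 members reached 1 FPKM in any iPSC sample, 43 in any other than iPSC1 9#. Col1a2 ran from 0.0358 to 303 FPKM over the 12 samples with a median of 2.36, and Acta2 from 0 to 255 FPKM with a median of 2.48. Tagln reached 163, Bgn 157 and Myl9 100.5 FPKM, all 5 in iPSC1 9#. The NanogWT samples iPSC1 1# and 1#-2 lay at 1.29 and 0.259. Column headers mark the samples p2, p5 or p6, which look like passage numbers. Samples marked p5, among them 9# and 1#, lay at 0.762 to 3.22, and those marked p6, among them 1#-2, at 0.234 and 0.259. Those marked p2 lay at 0.135 to 0.657. All iPSC2 samples are p2 and all iPSC1 samples p5 or p6, so line and this mark cannot be told apart, and its part was not tested.

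With iPSC line as a covariate, no member was called between NanogBiD and NanogWT iPSC by limma (0% of 12456 genes tested), and 0 of the 43 members tested had an unadjusted p under 0.05, against 201 of all genes tested. The members' median log2 difference was 0.38 with 42 of 43 positive. Without iPSC1 9# it was -0.18 with 26 of 31 negative, so its direction rests on that sample; this comparison was added after the data were seen.

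**Figure D5:**
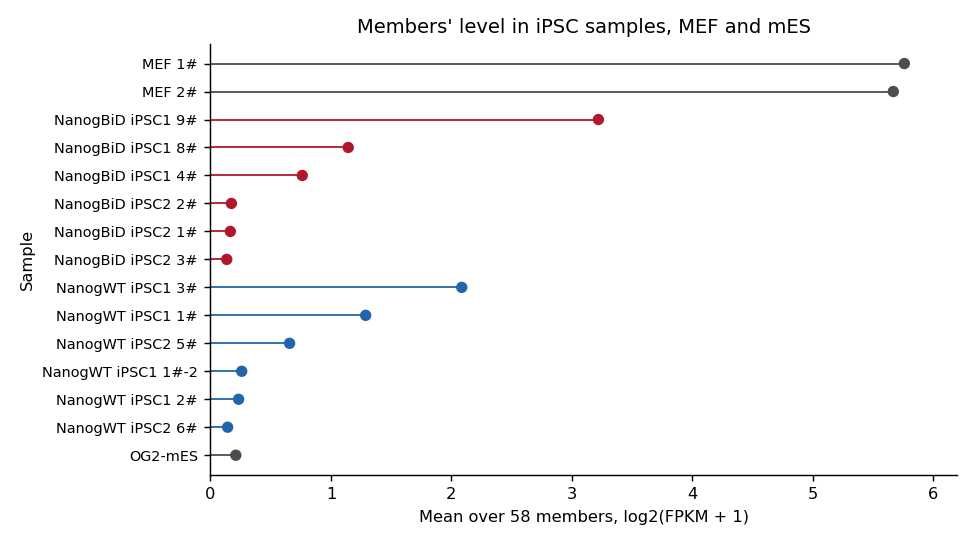
Mean log2(FPKM + 1) over the 58 members listed in the iPSC table, 1 point per sample, for MEF, the 6 NanogBiD and the 6 NanogWT iPSC samples and mES. The 3 NanogBiD iPSC2 samples lie at 0.135 to 0.174, below mES at 0.210, while NanogBiD iPSC1 9# lies at 3.22 and NanogWT iPSC1 3# at 2.09.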

How the data were processed

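The authors trimmed reads with Trim Galore 0.6.4, aligned them to mm10 with HISAT2 2.2.1 and estimated levels with StringTie 2.2.1, per the labels and the study's methods; the annotation and strand setting are not given in the sources used here. The deposited values are FPKM per gene (37108 genes, 34 samples) and per transcript for iPSC, summed here per gene. FPKM are not counts, so log2(FPKM + 1) was tested with limma 3.58.1 in R 4.3.3 over the 16842 genes that reached 1 FPKM in 2 or more of the 31 time-course libraries, with an intensity trend and Benjamini-Hochberg adjustment; tables used Python 3.11.15. Scripts were tested on simulated data. The members and lists were chosen with earlier results of these data known. Genes given by library were the 10 lowest by the rule, the 5 most negative and 5 most positive at D7, the 5 highest relative to MEF at D12 in each combination, the 5 highest in MEF and in iPSC, and those at the cutoff. Fbln5, Cxcl12, Tgfb2, Twist2, S100a4, Col12a1, Ccn4 and Dnm3os were chosen after their values were seen. Alternatives covered the pseudocount, scaling, filters, samples and member rule.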

Additional observations from a re-analysis of the deposited data

Results flagged for a closer look

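In the 6 NanogBiD iPSC samples, iPSC1 9# lay far from the others: the gap between its mean level of the members (3.22 on the log2 scale) and the next sample (1.14) was 0.673 of the whole range, above the critical value of 0.625 for 6 samples. Chance flags about 1 in 20 groups. The change from D0 to D7 differed between the combinations for 14 members (10.1% of all genes), as tested by the interaction in limma. The change from D7 to D12 differed for 36 (14.1% of all genes). Both counts were lower without replicate 1, as given above.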

How the results depend on the processing

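The counts of members called kept within 1.5 times of the reported ones under quantile normalization, rescaling to TPM and no filter on low values. A pseudocount of 0.1 moved D0 from 2 to 1. With no fold limit, 4 were called at D0 and 24 at D7. Where the fit or the threshold was changed, the share of all genes called was not taken. Those counts show only how the number of members called moves. With the groups of each contrast fitted alone, the counts were 0 at D0, 0 at D1 and 10 at D5. Leaving out a replicate gave 1 to 3 at D0, 1 to 3 at D1, 10 to 13 at D5, 5 to 10 for the interaction of D7 and D0, and 18 to 29 for that of D12 and D7. Taking 30 members gave 1 at D0, 4 at D1, 6 at D5, 4 at D7, 27 at D10, 24 at D12, 26 for NanogWT D3 and 26 for D7 against D0, 18 for NanogWT D8 and 19 for D12 against D7, 8 for NanogBiD D12 against D7, and 7 and 16 for the interactions. Taking 120 gave 29 at D5, 32 at D7, 108 at D10, 102 at D12, 74 and 71 for NanogWT against D0, 57 and 58 for NanogWT against D7, 59 for NanogBiD, and 32 and 85 for the interactions; these counts scale with the list. The cause of the other changes was not tested. Ptn at D12 reversed without replicate 2 (log2 difference -0.023, and 0.80 without replicate 1). Counting each locus once, an alternative chosen after seeing the data, left 33 to 51 calls in the comparisons with over 30. The deviations of libraries with the same number correlated from -0.065 (D3) to 0.395 (D7), over 0.1 on 4 of 7 days but not on all, and no label ties the numbers, so they were not taken as pairs; with a replicate block the counts were 8 at D1 and 37 for the interaction of D12 and D7, and as reported elsewhere. Scaling moved the median of all genes by up to -0.17 (quantile) and 0.15 (TPM) for NanogWT D7 against D0. The single NanogBiD D8 library has no replicate, and depth in read counts is unknown beyond its relative value.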
